A study of Mus musculus with 7 samples.

Results

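Islets hold a dense bed of capillaries, and the results below follow 9 genes that mark the cells lining it, the endothelium, together with Vegfa, the growth factor by which beta cells sustain that bed. The 10 genes were chosen by name (Kdr, Flt1, Pecam1, Cdh5, Tek, Tie1, Plvap, Esm1, Eng and Vegfa), and all 10 were found among the 34245 genes in the deposited table. The libraries are polyA RNA of whole islets from 7 C57BL/6J mice aged 8 weeks, 2 of them controls and 5 knockouts (KO). The KO mice (Abca12 tm1d) had lost floxed Abca12, which encodes a lipid transporter, through Rip1-Cre, a transgene whose insulin promoter acts in beta cells. Control 1 carried Rip1-Cre with intact Abca12 and Control 2 carried Rip1-Cre with 1 floxed allele, so every mouse carried the transgene and each control genotype is 1 mouse.

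Signalling between beta cells and capillaries runs mainly through VEGF-A. Beta cells secrete it, and endothelial cells receive it with the receptor tyrosine kinases VEGFR2 (Kdr), which carries most of the signal, and VEGFR1 (Flt1), which binds VEGF-A tightly and signals weakly. A parallel pathway uses the angiopoietins, their receptor Tie2 (Tek) and its partner Tie1. Islet capillaries are fenestrated, and PLVAP forms the diaphragms of those pores. These are general knowledge of the tissue and not results of these libraries.

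Upstream windows from RefSeq (GRCm38.p6) were available for 7 of the 10 genes: Kdr, Flt1, Tek, Tie1, Esm1, Eng and Vegfa. The 250 bases before the annotated start of 5 of them are printed. They show the upstream sequence of 3 receptor genes, of the secreted marker Esm1 and of the ligand gene Vegfa. Of the printed Kdr window, 3 bases lie inside the gene as the deposited table positions it. Capitals mark GGAA or its reverse complement TTCC, the core bound by ETS factors, a family that regulates many endothelial genes.
Kdr (chr5:75978456-75978705, minus strand): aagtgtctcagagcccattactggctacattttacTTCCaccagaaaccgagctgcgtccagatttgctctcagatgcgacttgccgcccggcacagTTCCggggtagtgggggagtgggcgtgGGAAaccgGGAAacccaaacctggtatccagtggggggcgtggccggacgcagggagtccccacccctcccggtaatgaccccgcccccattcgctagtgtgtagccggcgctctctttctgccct
Flt1 (chr5:147726012-147726261, minus strand): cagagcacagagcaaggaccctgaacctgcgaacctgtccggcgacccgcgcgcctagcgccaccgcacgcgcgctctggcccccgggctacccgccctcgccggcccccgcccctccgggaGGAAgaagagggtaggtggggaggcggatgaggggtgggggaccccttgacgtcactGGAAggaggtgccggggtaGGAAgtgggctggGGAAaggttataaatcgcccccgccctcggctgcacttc
Tek (chr4:94739039-94739288, plus strand): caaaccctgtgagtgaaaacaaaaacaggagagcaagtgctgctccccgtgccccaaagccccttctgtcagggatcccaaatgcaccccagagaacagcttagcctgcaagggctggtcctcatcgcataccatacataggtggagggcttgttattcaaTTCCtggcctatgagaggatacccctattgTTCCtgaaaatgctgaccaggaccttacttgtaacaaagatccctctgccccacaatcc
Esm1 (chr13:113209409-113209658, plus strand): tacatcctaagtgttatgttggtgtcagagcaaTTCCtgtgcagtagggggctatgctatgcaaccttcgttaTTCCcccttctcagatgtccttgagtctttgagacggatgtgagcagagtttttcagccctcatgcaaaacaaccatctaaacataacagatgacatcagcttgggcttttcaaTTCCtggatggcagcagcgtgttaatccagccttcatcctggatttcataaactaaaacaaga
Vegfa (chr17:46032378-46032627, minus strand): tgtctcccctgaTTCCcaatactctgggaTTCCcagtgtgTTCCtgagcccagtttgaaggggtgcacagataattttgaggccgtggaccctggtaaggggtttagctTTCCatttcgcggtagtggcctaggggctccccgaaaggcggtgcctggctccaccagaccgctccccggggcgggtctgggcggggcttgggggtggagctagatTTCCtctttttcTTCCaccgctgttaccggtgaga
The ETS core was found 4 times each in the Kdr and Flt1 windows, 2 times in the Tek window, 3 times in the Esm1 window and 6 times in the Vegfa window. It was also present in 93.4% of all 32851 windows of that length, so its presence sets no gene apart. The Tie1 window is not printed because 212 of its bases lie inside the gene as positioned in the deposited table. The longer ETS motif CAGGAAG (10.8% of all windows, both strands) was in none of these 7 genes' windows. The GC box GGGCGG, bound by SP and KLF factors, was found 2 times for Kdr, 3 times for Flt1 and 2 times for Vegfa, and 0 times for Tek, Tie1, Esm1 and Eng (32.7% of all windows held it). The Flt1 window also held TATAAA, 31 bases before the start (12.4% of all windows). The hypoxia response core ACGTG was not in these 250 bases of Vegfa. It was found 1 time before a second annotated Vegfa start that lies within the gene (chr17:46025164-46025413), and 16.6% of all windows held it.

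Reads in listed genes numbered 13335960 to 24590888 per library. Abca12 was listed at 0 reads in all 7 libraries, so it cannot check the labels. The limit that 0 reads allows was 0.0696 to 0.125 RPM (reads scaled to the library's depth) by library. The column headers mark KO 1 and KO 2 with f and the other libraries with m. Xist, a transcript of female cells, matched these marks: KO 1 had 385 and KO 2 had 368 RPM, and the remaining libraries had 0.362 to 0.533 RPM. All controls are therefore male, and the females are KO 1 and KO 2. The pan-endothelial markers Kdr and Pecam1 had at least 462 and 293 reads in each library, so endothelial RNA was measured in all of them. In bulk islets, fewer endothelial cells and less RNA per endothelial cell cannot be told apart. Nor can bulk islets tell which cells the Vegfa reads came from. Acinar genes, the digestive enzymes of the exocrine pancreas, also differed: the 20 listed summed to 936 and 463 RPM in the controls and to 3465, 11825, 12108, 1941 and 2321 RPM in KO 1 to KO 5.

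Each of the 9 endothelial genes had a lower mean in KO islets, with folds of 0.662 to 0.776, while the mean of Vegfa was 201 RPM in controls and 194 RPM in KO. None of the 10 passed the test across all genes. Kdr (chr5:75932827-75978458, minus strand), the gene of the main VEGF-A receptor, stood at 31.9 and 32.9 RPM in Control 1 and Control 2 and at 18.0, 17.4, 24.9, 25.4 and 23.6 RPM in KO 1 to KO 5. All 5 KO libraries lay below both controls, and KO 1 and KO 2 were the lowest. The group values were 32.4 ± 0.696 (SD, n = 2) and 21.9 ± 3.89 RPM (SD, n = 5), a fold of 0.677 (95% interval 0.546 to 0.839). Flt1 (chr5:147561604-147726011, minus strand) stood at 30.3 and 30.1 RPM in the controls and at 19.2, 19.6, 25.2, 26.4 and 27.0 RPM in KO 1 to KO 5, again without overlap. Its fold was 0.776 (0.636 to 0.947). The 2 controls differed by little for both receptor genes, and the spread lay within the KO group.

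The angiopoietin receptor gene Tek (chr4:94739289-94874976, plus strand) was the lowest of the set, at 3.43 and 3.01 RPM in the controls and 1.88, 1.77, 2.42, 3.08 and 2.11 RPM in KO 1 to KO 5. KO 4 reached the lower control, so the groups overlapped. Tie1 (chr4:118471191-118490061, minus strand), which encodes the partner receptor, stood at 6.77 and 9.70 RPM in the controls and at 4.67, 4.28, 5.86, 7.07 and 6.24 RPM in KO 1 to KO 5. KO 4 again stood above the lower control, which was Control 1 for Tie1 and Control 2 for Tek. The folds were 0.763 (0.590 to 0.987) for Tek and 0.718 (0.544 to 0.946) for Tie1. The log2 fold change of Tie1 was -0.48 with both controls, -0.25 without Control 2 and -0.71 without Control 1.

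Genes of the cell junctions had a like pattern. Pecam1 (chr11:106654217-106750628, minus strand), which encodes the adhesion molecule CD31 and is also made by platelets and some leukocytes, stood at 21.4 and 26.2 RPM in the controls. Its KO values were 13.0, 11.0, 17.7, 19.0 and 17.4 RPM, all below both controls. Its fold of 0.662 (0.505 to 0.867) was the smallest of the 9. Ptprc, the pan-leukocyte gene of CD45, stood at 2.01 and 7.96 RPM in the controls and 1.16 to 2.60 RPM in KO, and its part in the Pecam1 values was not tested. Cdh5 (chr8:104101625-104144511, plus strand), which encodes VE-cadherin of the endothelial adherens junction, stood at 22.2 and 28.6 RPM in the controls and at 16.5, 15.1, 19.7, 22.1 and 23.1 RPM in KO 1 to KO 5. KO 5 lay between the controls, and the fold was 0.765 (0.606 to 0.965). The log2 fold change of Cdh5 was -0.39 with both controls, -0.21 without Control 2 and -0.56 without Control 1.

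Eng (chr2:32646595-32682669, plus strand) encodes endoglin, a co-receptor for TGF-beta and BMP ligands. It stood at 37.0 and 54.0 RPM in the controls and at 31.4, 27.9, 29.5, 37.8 and 35.1 RPM in KO 1 to KO 5. Plvap (chr8:71497765-71511752, minus strand), the gene of the pore diaphragms, stood at 27.8 and 41.0 RPM in the controls and at 19.8, 19.4, 23.2, 27.5 and 28.1 RPM in KO 1 to KO 5. For both genes 1 KO library lay above Control 1, and Control 2 stood far above every KO library. The folds were 0.725 (0.586 to 0.896) for Eng and 0.699 (0.545 to 0.897) for Plvap. Both sizes depended on which control was kept: the log2 fold change of Eng was -0.46 with both, -0.20 without Control 2 and -0.73 without Control 1. That of Plvap was -0.52, -0.24 and -0.79 in the same order. Eng overlaps Fpgs and Plvap overlaps Gtpbp3 on the opposite strand. Esm1 likewise overlaps Gzmk (0 to 6 reads per library), and Cdh5 overlaps Gm29682 (0 reads in each library). The strand setting of the counting is not given in the sources used here, so reads from the overlaps may be shared.

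Esm1 (chr13:113209659-113218098, plus strand) encodes endocan, a proteoglycan secreted by endothelial cells and induced by VEGF-A. It stood at 41.8 and 44.4 RPM in the controls and at 28.5, 24.3, 28.3, 31.7 and 41.0 RPM in KO 1 to KO 5. KO 5 came close to Control 1, yet all 5 lay below both controls. The log2 fold change was -0.49 (SE 0.15). The levels of all 10 genes are shown for each library in the plot of members by library.

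**Figure D1:**
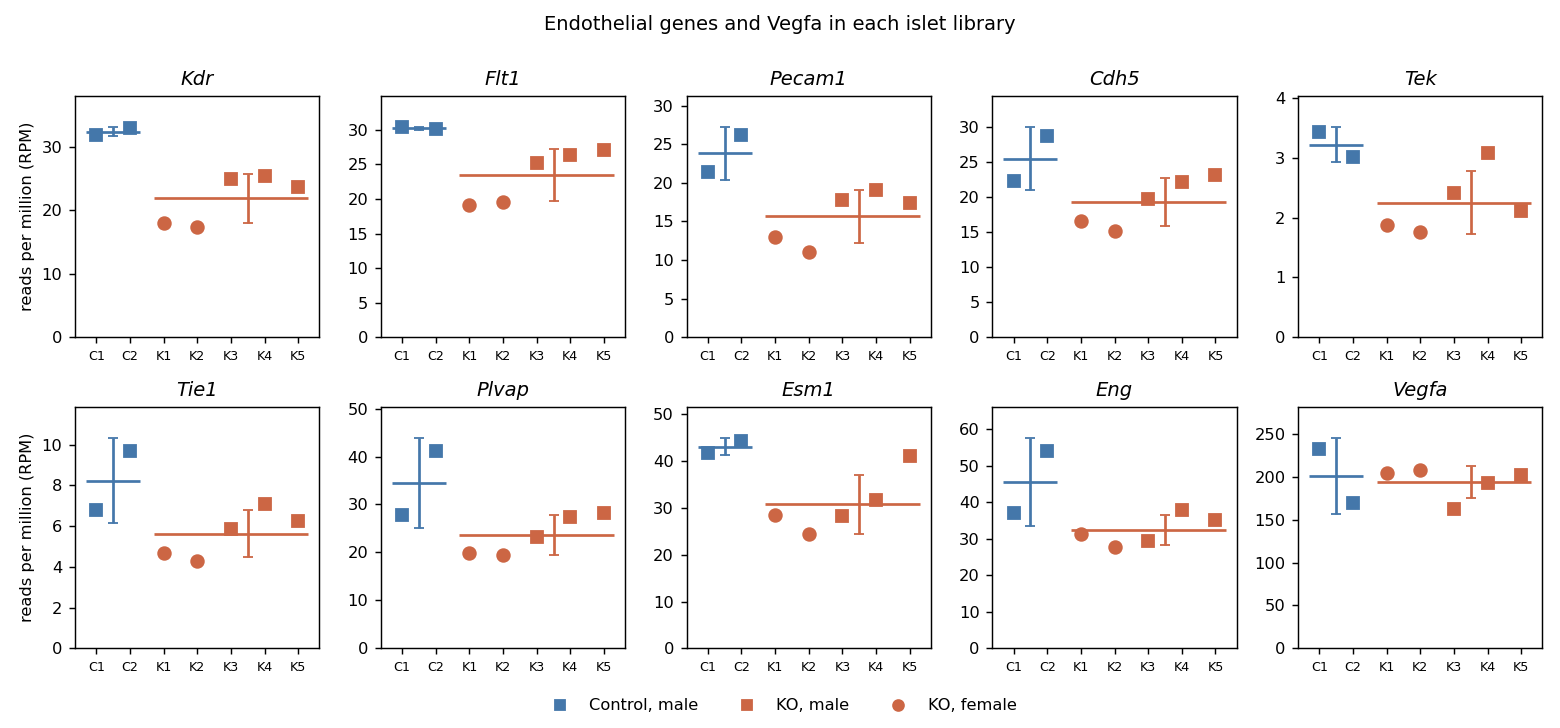
Level of each gene in depth-scaled reads (RPM, linear axes from 0) in Control 1 and 2 (C1, C2) and KO 1 to 5 (K1 to K5). Squares are male and circles female libraries, lines are group means and bars the SD. Kdr, Flt1, Pecam1 and Esm1 did not overlap between groups, and Vegfa ranged from 163 to 232 RPM with no separation.

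No member passed the threshold of an adjusted p of 0.05 over all 16212 genes tested, and 10 genes (0.0617%) did so among all tested, 3 of them lower in KO (0.0185%). The test was limma on log2(RPM + 1), with Benjamini-Hochberg adjustment. The lowest adjusted p by limma was 0.162, for Kdr (log2 fold change -0.56, SE 0.14), and Kdr ranked 186 of the 16212 genes by p. The others ranged up to 0.435, for Tek. At an unadjusted p under 0.05, 9 of 9 endothelial genes were lower in KO, where 6.16% of all genes were. In 4 of 9 (Kdr, Flt1, Pecam1 and Esm1) all KO libraries lay below both controls, against 8.41% of all genes. The opposite order, all KO libraries above both controls, held for 0 of 9 and for 6.75% of all genes, so that 15.2% had no overlap in either direction. A lower mean in KO was found for 51.7% of all genes. Without Control 1, Eng passed (adjusted p = 0.0474 by limma), and without Control 2 its adjusted p was 0.733 by limma. Over the 20 alternative settings the adjusted p of Eng ran from 0.0474 to 0.973. The median log2 fold change was -0.48 over the 9 genes and -0.01 over all genes tested. Genes of 1 cell type share the same cells, so the 9 are not independent measurements. In the authors' deposited table of 136 selected genes, each gene differs by at least 1.5-fold. Kdr is the 1 member listed there, with a log2 difference of -0.59 (KO minus control) and a corrected p of 0.0351. Its fold lies right at that lower limit.

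**Figure D2:**
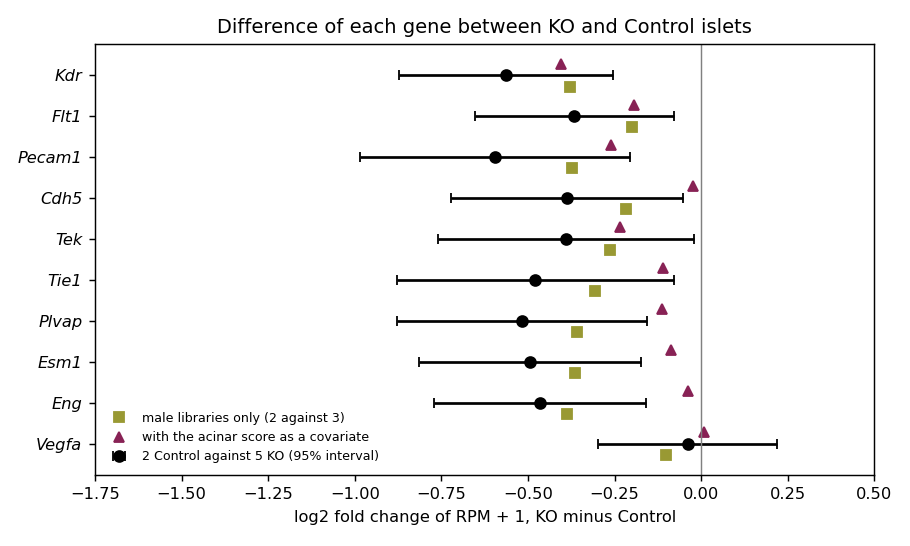
Log2 fold change of RPM + 1, KO minus Control, for each gene, with its 95% interval from limma (black). Squares give the male libraries alone and triangles the fit adjusted for acinar score. The 9 endothelial genes ran from -0.60 to -0.37, and Vegfa stood at -0.04.

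The size of the difference was uneven within the KO group. The 9 genes summed to 223 and 270 RPM in the controls and to 153, 141, 177, 200 and 204 RPM in KO 1 to KO 5. KO 1, KO 2 and KO 3 stood below both controls in 9 of 9 genes, KO 4 in 6 and KO 5 in 7. The share of all genes was not computed for single libraries, so these counts only describe the members. The 2 female libraries were the lowest. Both lay below all 3 male KO libraries in 7 of 9 genes (77.8%), the exceptions being Esm1 and Eng, where this held for 7.29% of all genes. Among 36 other endothelial genes it held for 11 (30.6%).

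With sex in the model, the term for female against male was -0.46 (SE 0.09) on the log2 scale for Kdr and -0.55 (SE 0.12) for Pecam1, with adjusted p of 0.226 and 0.377 by limma. At an unadjusted p under 0.05 that term was negative for 7 of 9 genes, against 1.76% of all genes, and 0 of 9 passed adjusted (0.0555% of all genes did). This term rests on 2 KO females, and there was no female control, so sex and other differences between these mice cannot be told apart. Within the male libraries alone, a comparison chosen after the data were seen, all 9 genes were still lower on average in KO. The median was -0.36, with Flt1 at -0.20, Pecam1 at -0.37, Cdh5 at -0.22 and Tie1 at -0.31 on the log2 scale, each moved by over 1.5 times. Of the 9 genes, 6 had an unadjusted p under 0.05 (5.24% of all genes were lower at that p), and 0 passed adjusted (0.0818% of all genes did). Kdr in the male KO libraries stood at 24.7 ± 0.927 RPM (SD, n = 3), a log2 fold change of -0.38 (95% interval -0.58 to -0.18, adjusted p = 0.201 by limma).

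Markers of other cell types differed beside the endothelial genes. Scaling without the acinar reads left the endothelial median at -0.47, and without KO 2 and KO 3, the libraries richest in acinar reads, it was -0.36. Fitted beside the acinar score, the endothelial median was -0.11, and 0 of 9 genes had an unadjusted p under 0.05. The share of all genes at that p was not computed. In that fit 0 of all genes tested passed adjusted, and standard errors were larger (Kdr 0.22, against 0.14 without the score). No KO library had an acinar score as low as a control, so the covariate overlaps with the group. Stellate and fibroblast markers (10 genes) summed to 46.0 and 139 RPM in the controls and 31.3 to 46.6 RPM in KO, and leukocyte markers (12 genes) to 49.1 and 116 RPM against 41.3 to 57.6 RPM. Control 2 was thus high in both, and without it the endothelial median was -0.37. Control 2 also stood above Control 1 in Pecam1, Cdh5, Tie1, Plvap, Eng, Kdr and Esm1, the last 2 by little, and below it in Flt1 and Tek. The part of these other cells in the endothelial result was not tested beyond these values.

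**Figure D3:**
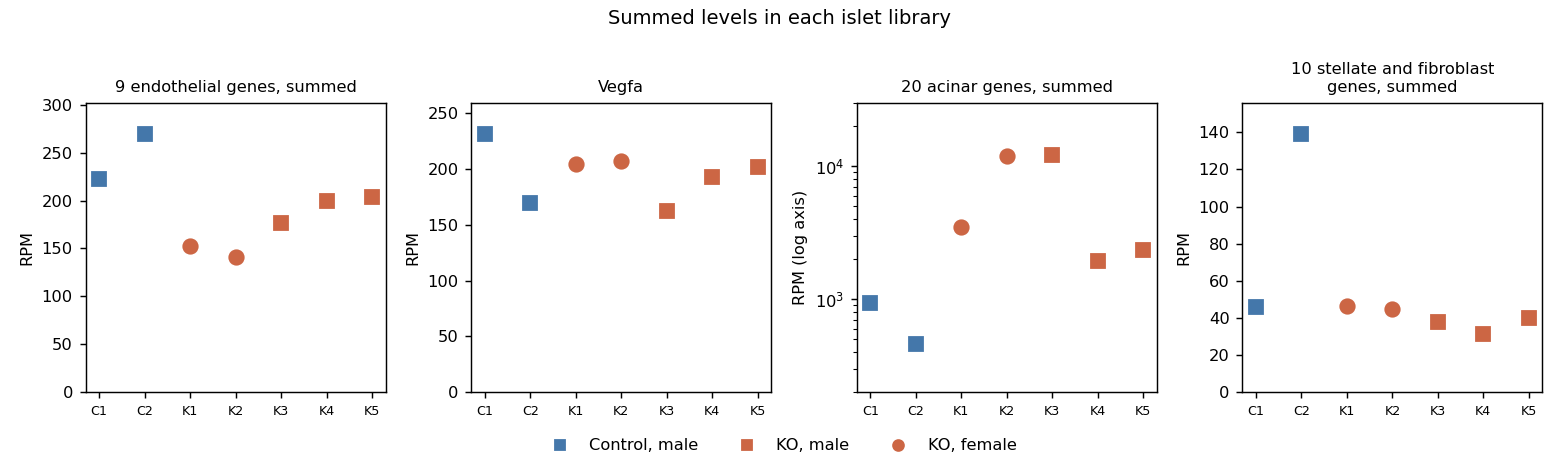
Summed RPM of the 9 endothelial genes, Vegfa, 20 acinar genes (log axis) and 10 stellate and fibroblast genes in each library, with colours and symbols for group and sex. Endothelial sums were 141 to 204 RPM in KO and 223 and 270 RPM in the controls, while only Control 2 was high in stellate genes.

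Vegfa (chr17:46016993-46032369, minus strand) stood at 232 and 170 RPM in the controls and at 204, 208, 163, 193 and 202 RPM in KO 1 to KO 5. The KO libraries lay mostly between the 2 controls, with KO 3 just below Control 2. The means were 201 ± 44.0 (SD, n = 2) and 194 ± 18.3 RPM (SD, n = 5), a fold of 0.974 with a 95% interval of 0.814 to 1.16 (adjusted p = 0.941 by limma). The 2 controls differed by more than the group means did. Without Control 1 the log2 fold change of Vegfa was 0.19, and without Control 2 it was -0.26. Relative to the endothelial sum, Vegfa stood at 1.04 and 0.628 in the controls and at 1.33, 1.48, 0.920, 0.962 and 0.991 in KO 1 to KO 5. Both female KO libraries had the highest ratios, and the groups overlapped.

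Per kilobase of merged exons (GENCODE M21), Vegfa was the most abundant of the 10 transcripts, at 46.8 ± 10.3 RPM per kilobase in controls and 45.2 ± 4.27 in KO. Esm1 (20.6 ± 0.849 in controls) and Plvap (17.3 ± 4.71) came next and did not differ beyond their spread. Eng followed at 11.2 ± 2.98 and Cdh5 at 6.05 ± 1.08. Pecam1 (3.82 ± 0.547) and Kdr (3.59 ± 0.0771) were alike within the spread of Pecam1, and Flt1 (2.24 ± 0.0142) and Tie1 (1.68 ± 0.422) were lower. Flt1 has the longest merged exons of the set (13504 bases), and unused exons would lower its value. Tek came last at 0.683 ± 0.0621. KO islets had the same order of means, with Plvap at 11.9 ± 2.07, Kdr at 2.42 ± 0.431 and Tek at 0.477 ± 0.112.

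The 9 genes were also compared with each other. Relative to the mean shift of the other 8 genes, Flt1 and Cdh5 stood higher in each of the 5 KO libraries (by 0.03 to 0.19 and 0.07 to 0.18 on the log2 scale). The 2 controls themselves differed from that mean by 0.14 in opposite directions for Flt1 and by 0.06 for Cdh5. Pecam1 had the most negative mean on this scale, at -0.14, with KO 3 slightly above 0. Esm1 varied most among the KO libraries, from -0.21 in KO 4 to 0.24 in KO 5.

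Beyond the 9 genes, 36 further endothelial genes were measured and 33 stood lower in KO on average (51.7% of all genes did). Of these, 0 passed adjusted, and 12 had an unadjusted p under 0.05 (6.16% of all genes were lower at that p). In 9, every KO library lay below both controls (8.41% of all genes). Their median log2 fold change was -0.22. It also depended on how low genes were treated: it was -0.37 with a filter at 50 reads, -0.37 by voom and -0.32 with a pseudocount of 0.25. Over the 20 alternative settings it ran from -0.38 to -0.03, the latter adjusted for acinar score. Ptprb, the phosphatase VE-PTP that restrains Tie2, stood at 23.5 ± 3.53 RPM in the controls (SD, n = 2) and at 14.4, 10.7, 15.4, 15.1 and 13.2 RPM in KO 1 to KO 5 (log2 fold change -0.73, SE 0.14, adjusted p = 0.0754 by limma). Sox18, a transcription factor of vascular development, stood at 4.56 and 6.60 RPM in the controls and 1.84 to 3.63 RPM in KO (log2 fold change -0.78). Not every endothelial gene differed in this way. Ramp2, the partner of the adrenomedullin receptor, which is not restricted to endothelium, stood at 41.7 and 44.1 RPM in the controls and 40.3 to 48.0 RPM in KO, and Rasip1, a regulator of vessel lumens, at 6.44 and 8.26 RPM and 5.75 to 8.44 RPM. These 2 were chosen after their values were seen.

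Among 11 tested ligands and co-receptors of these pathways, 7 stood lower and 4 higher, with 0 past the threshold and a median of -0.10. That median depended on how low genes were treated: it was -0.38 with a filter at 50 reads, -0.29 by voom and -0.23 with a pseudocount of 0.25. Without KO 1 it was -0.18, without KO 4 -0.21, and adjusted for acinar score 0.09. Angpt2, the context-dependent Tie2 ligand made by endothelial cells, stood at 16.6 and 18.4 RPM in the controls and at 10.1, 10.7, 9.91, 11.6 and 13.1 RPM in KO 1 to KO 5 (log2 fold change -0.62, SE 0.12, adjusted p = 0.0795 by limma). All 5 lay below both controls. Nrp2, a co-receptor for VEGF family ligands, stood at 9.45 and 10.6 RPM in the controls and 6.68 ± 0.381 RPM in KO (SD, n = 5, log2 fold change -0.52, adjusted p = 0.119 by limma). Its KO libraries were tightly grouped between 6.23 and 7.25 RPM. Both genes are in the authors' deposited table, with log2 differences of -0.66 and -0.59. Their corrected p there, from a test that is not named, was 0.0014 and 0.018. Other genes named in these results are listed there too. Ptprb (-0.78), Epas1 (-0.78), Pdgfrb (-0.68), Tagln (-0.92), Col6a3 (-1.19), Mgp (-0.70), Laptm5 (-1.18) and Ptprc (-1.19) are lower in KO. By the same unnamed test the corrected p was 0.00036 for Ptprb and 0.00075 for Epas1. Reg1 (3.09) and Ctrc (3.01) are higher in KO. Pgf, a VEGF family ligand that binds VEGFR1, stood the other way, at 2.42 and 2.62 RPM in the controls and 3.15 to 4.71 RPM in KO (log2 fold change 0.47, adjusted p = 0.314 by limma). Pgf was chosen after its values were seen.

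Intracellular partners of the receptors had a median of -0.02 (17 tested, 0 past the threshold). Shb, an adaptor of VEGFR2 with wide expression, stood at 19.4 and 20.6 RPM in the controls and 25.1 ± 1.39 RPM in KO, with all KO libraries above both controls. Ptpn6, the phosphatase SHP-1, stood at 32.7 ± 0.863 and 25.2 ± 1.88 RPM, with all below. Their adjusted p values were 0.186 and 0.132 by limma. Notch and BMP partners of the endothelium had a median of -0.10 (18 tested, 0 past the threshold). Notch4, the endothelial Notch receptor, stood at 16.6 ± 1.80 and 11.6 ± 1.29 RPM, and the BMP receptor gene Bmpr2 at 38.0 ± 2.92 and 28.1 ± 3.76 RPM.

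Oxygen-response genes, a list that mixes targets with regulators such as Hif1a, Arnt and Vhl, had a median of -0.02. Of 21 tested, 9 stood higher and 12 lower, and 0 passed the threshold. The median is therefore not a measure of targets alone. The exception in size was Epas1, which encodes HIF-2alpha and is abundant in endothelium. It stood at 15.4 and 20.4 RPM in the controls and at 12.6, 8.56, 8.94, 11.0 and 11.2 RPM in KO 1 to KO 5 (log2 fold change -0.72, SE 0.15, adjusted p = 0.101 by limma). The collagen-modifying enzyme gene P4ha1 stood at 58.0 ± 6.90 and 66.6 ± 5.30 RPM.

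Vessel wall genes were lower on average as well. Of 13 vascular basement membrane genes 11 stood lower, where 51.7% of all genes did (median -0.27), and 0 passed. The type IV collagen genes Col4a1 and Col4a2 stood at 86.4 ± 19.7 and 58.1 ± 8.34 RPM, and at 70.3 ± 13.3 and 49.1 ± 6.21 RPM. Pericyte and mural cell genes had a median of -0.46 (13 tested, 12 lower, 0 past the threshold), but Control 2 carried it. Pdgfrb stood at 9.53 and 18.3 RPM in the controls and 7.55 to 8.72 RPM in KO, and Tagln at 3.18 and 5.51 RPM and 1.66 to 2.64 RPM. The mural median was 0.02 without Control 2 and -0.71 without Control 1. Stellate and fibroblast genes had a median of -0.92 (8 tested), with Col6a3 at 9.95 and 23.8 RPM in the controls and 6.26 to 7.07 RPM in KO, and Mgp at 17.2 and 29.3 RPM and 12.2 to 15.4 RPM. Leukocyte genes had a median of -0.50 (11 tested), with Laptm5 at 5.48 and 15.7 RPM and 3.47 to 4.84 RPM, and Lyz2 at 7.15 and 33.1 RPM and 3.81 to 11.5 RPM. Without Control 2 these medians were -0.23 and 0.15, and without Control 1 they were -1.85 and -1.38. With both controls 0 genes of either list passed. Lymphatic endothelial markers were scarce: 3 of 5 were tested, Ccl21a had 0 reads in all libraries, and Pdpn and Reln stood at 0.473 to 2.30 RPM. Of 9 platelet and erythrocyte genes 5 were tested, and the globin genes Hba-a1 and Hbb-bs stood at 0.110 to 0.627 RPM. All 20 acinar genes had a higher mean in KO (median 2.73, 0 past the threshold), among them Reg1 at 8.36 and 6.33 RPM in the controls and 30.1 to 169 RPM in KO, and Ctrc at 26.9 and 12.2 RPM and 61.2 to 376 RPM. Beta cell genes had a median of -0.11 (12 tested, 0 past the threshold). Ucn3, a maturity marker, stood at 62.0 RPM in both controls and 37.7 to 53.4 RPM in KO, and the incretin receptor gene Glp1r at 76.8 and 97.6 RPM and 57.2 to 78.2 RPM. Ins1 ranged from 16803 to 27290 RPM and overlapped between groups.

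**Figure D4:**
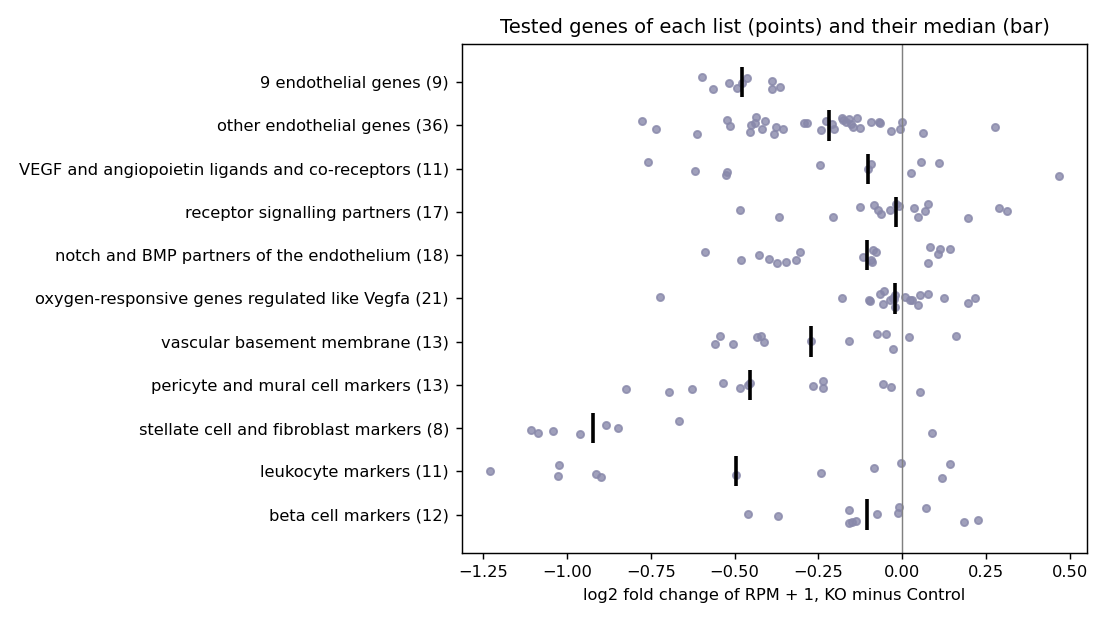
Log2 fold change of RPM + 1, KO minus Control, for each tested gene (points) and the median of each list (bar), with the number tested in brackets. The 9 endothelial genes (median -0.48) form a tight cluster below 0. Receptor partners and the oxygen-responsive list, which also holds regulators, are centred near 0 (medians -0.02).

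Profiles over the 7 libraries were compared with the mean profile of the 9 genes among 14344 genes in no list, by the root mean square difference of centred log2(RPM + 1) values. The 5 nearest were E330040D14Rik (0.0743), Hic1 (0.0781), Fzd4 (0.0860), 9430041J12Rik (0.0900) and F2r (0.0946), against a root mean square of 0.281 for the endothelial profile itself. Fzd4, the receptor for Norrin and some Wnt ligands, stood at 6.52 and 6.99 RPM in the controls and at 4.52, 4.21, 4.97, 5.53 and 5.89 RPM in KO 1 to KO 5. F2r, which encodes the thrombin receptor PAR1, stood at 3.05 and 3.04 RPM and at 1.84, 1.73, 2.13, 2.67 and 2.37 RPM. KO 1 and KO 2 were the lowest libraries for Fzd4 and F2r. Both genes were chosen for nearness to the endothelial profile, so this order follows from the choice. Nearest to Vegfa were Ccdc166 (0.0319), D930007J09Rik (0.0387), Gm12473 (0.0451), Whrn (0.0476) and Cnn3 (0.0522), against 0.163 for Vegfa itself. Whrn, which encodes the scaffold protein whirlin, stood at 28.6 and 21.6 RPM in the controls and 18.7 to 26.4 RPM in KO. Its lowest library was KO 3, as for Vegfa, which likewise follows from the choice by profile.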

How the data were processed

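Whole islets of 2 control and 5 KO mice were grouped by their titles, and libraries were polyA-selected and directional, per the labels' protocols. HISAT2, GRCm38 and DESeq2 appear in the submitters' processing notes, with no version or role. The authors deposited log2 values of reads scaled to library depth (RPM). Reads per gene could be recovered, since at least 99.97% of each library's values were whole read numbers to 0.02, and depths came to 23922958 to 43117317 reads. A second deposited table lists selected genes with deposited log2 means, the fold as a ratio, and a corrected p-value whose test the file header does not name.

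The filter kept genes at or above 0.366 RPM (10 reads at median depth) in 2 or more libraries. Limma 3.58.1 in R 4.3.3 was fitted to log2(RPM + 1) with an intensity trend, two-sided, with Benjamini-Hochberg adjustment over 16212 genes. Fold changes on this scale understate those of low genes. The scripts were tested on simulated data. A value of 3 reads was taken as the upper limit of a count of 0, covering counting error only. Shared litters or days are not given in the labels, and p-values describe only the variation among the 7 libraries.

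The members, gene lists and rules were chosen with earlier results of these data known. The text names all members, the 2 genes with the smallest p of each list described, and the 5 nearest profiles; others were chosen after their values were seen. Positions are those of the deposited table (GRCm38). Alternatives covered scaling, filters, pseudocount, voom, covariates, the replicate block and left-out libraries. Plots were drawn with matplotlib 3.10.9.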

Additional observations from a re-analysis of the deposited data

Results flagged for a closer look

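Among the 5 KO libraries, Gm12473, a predicted gene named for a profile near that of Vegfa, stood at 0.342 RPM in KO 3 and at 0.696 to 0.826 RPM in the other 4, so KO 3 lay far from the rest. Gm12473 was chosen for nearness to the Vegfa profile, and KO 3 was also the lowest library for Vegfa. A low value in KO 3 thus follows from the choice. The gene had only 13 to 30 reads per library. Of 46 genes checked in this way 1 stood out, and chance alone marks about 1 in 20 groups.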

How the results depend on the processing

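Over 20 alternative settings the 9 endothelial genes kept a negative median log2 fold change, from -0.69 with the replicate block to -0.11 with the acinar score as a covariate, and from -0.58 to -0.37 with 1 library left out. Members past the threshold numbered 0 in each setting but one: without Control 1 there was 1, Eng (adjusted p = 0.0474 by limma), in a fit that sets 1 control against 5 KO libraries and assumes that the lone control varies like the KO group. The count over all genes was 10. It was 4 without a filter, 16 with TMM scaling, 20 with median-of-ratios scaling, 3 with a sex covariate, 0 with the acinar covariate, 42 with robust empirical Bayes and 47 without KO 2 and KO 3. With 1 library left out it ran from 2 to 120, with 120 without Control 1, 2 without Control 2, 3 without KO 3 and 2 without KO 4. The cause was not tested. Vegfa changed sign in 5 settings: 0.054 with the replicate block, 0.0078 with the acinar score, 0.19 without Control 1, 0.02 without KO 3 and 0.0088 without KO 2 and KO 3. It ran from -0.26 to 0.19 with 1 library left out, and its adjusted p was never under 0.594. The replicate numbers pair no mice per the labels, and the deviations of same-numbered libraries correlated at -0.0992 and -0.240 across genes. With the replicate block 11 genes passed and 0 members. KO 3, KO 4 and KO 5 have no control of the same number, so they do not enter the difference in that fit. It rests on Control 1 with KO 1 and Control 2 with KO 2, male controls against female KO mice. Group and sex cannot be told apart there. A count test on the recovered reads was limited to voom (10 genes, 0 members), and the planned edgeR fit was not run. Depth limits Tek most, with 47 to 100 reads per library.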
